A study of Mus musculus with 9 samples.

Results

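Regulatory T cells, the T cells that carry the transcription factor Foxp3, were picked out of mouse spleen by their transcripts, and 628 of them were found among 45217 single cells. A cell was taken when it held at least 1 unique molecular identifier (UMI, a tag that marks 1 captured molecule) of Foxp3, at least 1 of Cd3d, Cd3e and Cd3g together, none of Cd8a or Cd8b1 and at most 1 of Cd79a. It also had to show at least 200 genes, at most 10% mitochondrial UMIs and 1 clear hashtag, meaning a top hashtag of at least 20 UMIs and at least 3 times the next. These cells are called Foxp3+ cells below. The members were thus chosen by measured UMIs of Foxp3, Cd3d, Cd3e, Cd3g, Cd8a, Cd8b1 and Cd79a, and these genes are given as descriptions only, and no test is read from them.

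The spleens came from mice that carry the R594C change in IRE1 (gene Ern1), a sensor of the endoplasmic reticulum (ER), and the study's title concerns the loss of its XBP1 splicing activity and B cell tolerance. All cells that passed a DAPI sort of total splenocytes were profiled by CITE-seq, which counts messenger RNA and antibody-bound DNA tags in the same cell. Wild type (WT) and R594C/+ gave 4 hashtag replicates each, and R594C/R594C gave 2. Each genotype was stained and captured as 1 pool, so that genotype and capture cannot be told apart, and the labels give no ages and no agent or treatment. The labels call the samples replicates without naming separate animals, so p-values measure the spread between these samples, which may be technical. By their Xist and Y-linked counts, WT replicate 2, all 4 R594C/+ replicates and R594C/R594C replicate 2 were female and the other replicates male.

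Regulatory T cells restrain other lymphocytes, and Foxp3 is the factor that fixes their identity. They keep the high-affinity interleukin 2 receptor chain CD25 (Il2ra), the checkpoint receptor CTLA-4, the Ikaros-family factor Helios (Ikzf2) and the receptors OX40 (Tnfrsf4) and GITR (Tnfrsf18), and in the spleen they range from resting cells, which recirculate through lymphoid organs using receptors such as CCR7, to effector cells, which home to tissues. IRE1 responds to unfolded protein in the ER by splicing Xbp1 mRNA, whose protein drives genes of folding and secretion. Counts per gene do not separate the spliced from the unspliced Xbp1 message. In RefSeq's annotation of the mouse build GRCm38.p6 (mm10), Foxp3 lies at chrX:7579676-7595243, Ikzf2 at chr1:69531207-69687351, Il2ra at chr2:11642792-11693194, Ctla4 at chr1:60909025-60915832, Tnfrsf4 at chr4:156013595-156016613, Xbp1 at chr11:5520641-5525993 and Ern1 at chr11:106397620-106487796, all protein-coding.

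The replicate of every cell was read from 4 hashtag barcodes of 15 bases. They are shown because each count per replicate below rests on telling them apart, and any pair of them differed at 11 to 13 positions.
Hashtag1: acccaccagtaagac
Hashtag2: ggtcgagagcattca
Hashtag3: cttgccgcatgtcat
Hashtag4: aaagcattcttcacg

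Surface protein was read from further barcodes of 15 bases. The 5 shown here belong to antibodies whose tags were higher on Foxp3+ cells than on other T cells (values below): CD25, CD278 (the receptor ICOS), CD357 (GITR), CD103 (the integrin that binds E-cadherin) and KLRG1.
CD25: accatgagacacagt
CD278: cgcgcacccattaaa
CD357: ggcactctgtaacat
CD103: ttcattagcccgctg
KLRG1_mh: gtagtaggctagacc

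The captures held 74538447 to 87953814 RNA UMIs and 7427955 to 8875461 antibody UMIs, and 13819 to 15712 barcodes per capture passed quality and carried 1 hashtag. Barcodes shared between pairs of captures numbered 68 to 89, none of them among Foxp3+ cells. The replicates held 26 to 107 Foxp3+ cells: 41, 52, 65 and 26 in WT, 76, 49, 58 and 78 in R594C/+ and 76 and 107 in R594C/R594C. Median depth was 2901.5 RNA UMIs per Foxp3+ cell, 3174 per T cell with neither a Foxp3 nor a Cd8 UMI (8051 cells, called Foxp3-negative T cells) and 3278 per cell of an activated subset of those (629 cells).

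The label of regulatory T cells was checked against genes that the rule did not use. A UMI of Ikzf2 was found in 89.0% of Foxp3+ cells and 32.3% of Foxp3-negative T cells. Ctla4 was found in 88.5% against 30.4%, Tnfrsf4 in 76.1% against 21.1% and Il2ra in 24.7% against 4.17%. Of these 4 markers, 341 cells (54.3%) showed 3, 105 (16.7%) showed all 4 and 11 (1.75%) showed none. With every cell thinned to 1000 UMIs, Ikzf2 was found in 76.9% against 20.6%, Ctla4 in 64.7% against 18.2%, Tnfrsf4 in 54.5% against 11.8% and Il2ra in 11.3% against 1.73%, with Foxp3+ cells higher for each. The activated subset of Foxp3-negative T cells stood closer. At full depth it held Ikzf2 in 65.3% of cells, Ctla4 in 70.6% and Tnfrsf4 in 61.2%, and only Il2ra was rare there (3.18%). Only 34.4% of Foxp3+ cells held a Cd4 UMI, but 99.8% carried a CD4 tag. The CD4 tag made up 86.7 to 108 of every 1000 antibody UMIs in the replicates' Foxp3+ cells, 8.51 to 17.3 in CD8 T cells and 0.930 to 1.68 in B cells. The CD8a tag was at 0.254 to 1.02 per 1000, against 33.4 to 56.7 in CD8 T cells.

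A rule that asks for 1 UMI can also take in cells through free RNA or mixed droplets, and their part was not tested. B cells, which should lack Foxp3, held a Foxp3 UMI in 28 of 23705 cells (0.118%, median depth 2971 UMIs), and CD8 T cells in 61 of 5322 (1.15%, median depth 4311). The B cells were chosen with no Cd3d, Cd3e or Cd3g UMI, so their share does not measure droplets that mix T and B cells. Just inside the threshold stood 329 cells with exactly 1 Foxp3 UMI, and 163 held 2 and 136 held 3 or more. In CPM, the UMIs of a gene scaled to a fixed total of RNA UMIs for each set, Ikzf2 was at 403 in T cells with no Foxp3 UMI, 2067 with 1, 2319 with 2 and 2317 with 3 or more. Il2ra was at 18.6, 156, 147 and 168 CPM in the same order, and Ctla4 at 272, 1401, 1281 and 1340. Cells with 1 Foxp3 UMI thus resembled those with more in these markers and not the cells just outside the threshold. Tnfrsf4 went from 178 to 923, 1172 and 1298 CPM, and the CD357 tag from 30.6 to 63.6, 74.2 and 78.5 per 1000.

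**Figure D1:**
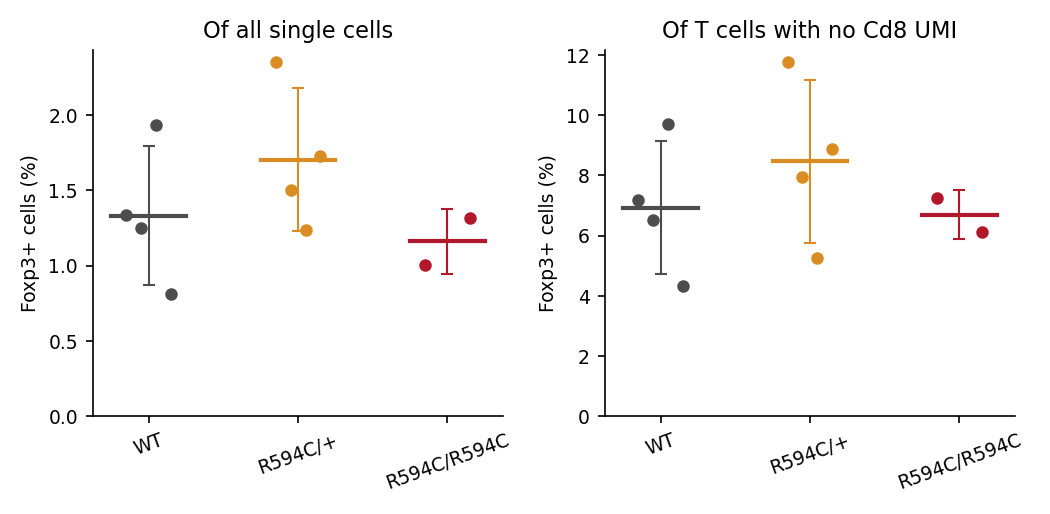
Foxp3+ cells as a percentage of all single cells (left) and of T cells with no Cd8 UMI (right), with 1 point per hashtag replicate, a line at the mean and bars of 1 SD (n = 4, 4 and 2). The ranges of the 3 genotypes overlap in both panels, and the highest share is in R594C/+ replicate 1.

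The share of Foxp3+ cells did not separate the genotypes beyond the spread between replicates. Foxp3+ cells made up 1.34, 1.25, 1.93 and 0.808% of all single cells in the WT replicates (mean 1.33% ± 0.463, SD, n = 4). In R594C/+ the shares were 2.35, 1.5, 1.24 and 1.73% (1.70% ± 0.476), and in R594C/R594C 1.01 and 1.31%. The ranges of the genotypes overlapped. Across 0, 1 and 2 mutant alleles the share had a correlation of -0.034 with allele number (two-sided exact permutation p = 0.928, adjusted 0.928 over 2 shares, n = 10). The mean of R594C/+ was 0.372 percentage points above WT (two-sided exact permutation p = 0.371, adjusted 0.4, where 0.0286 is the smallest possible).

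Counted against T cells with no Cd8 UMI, which leaves out the B cells whose number also sets the first share, Foxp3+ cells were 7.17, 6.52, 9.70 and 4.34% in WT. They were 11.8, 7.96, 5.24 and 8.88% in R594C/+ and 7.27 and 6.12% in R594C/R594C. Both R594C/R594C values lay inside the WT range. The correlation with allele number was 0.042 (two-sided exact permutation p = 0.908, adjusted 0.928, n = 10), and R594C/+ lay 1.53 percentage points above WT (exact permutation p = 0.4, adjusted 0.4). Within 1 replicate the exact 95% binomial interval was wide, from 2.86 to 6.30% for WT replicate 4 with 26 cells and from 5.04 to 7.35% for R594C/R594C replicate 2 with 107, and these intervals cover counting error only. An exact permutation test of 2 replicates against 4 cannot go below p = 0.0667. The shares leave out regulatory T cells whose Foxp3 was not captured, and they depend on depth. With every cell thinned as above, the mean share of T cells was 3.2% in place of 6.9% in WT. It was 4.5% in place of 8.5% in R594C/+ and 2.9% in place of 6.7% in R594C/R594C.

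Foxp3+ cells were next set beside Foxp3-negative T cells of the same replicate, to show which genes other than those of the rule set them apart. UMIs were summed per replicate and cell set, and edgeR's quasi-likelihood test with the replicate as a block was run on 8192 genes. At a Benjamini-Hochberg adjusted p under 0.05, 22.5% of them were called, 919 higher (11.2%) and 925 lower (11.3%) in Foxp3+ cells. Foxp3-negative T cells were not required to hold Cd4 and include other kinds of T cell. They may also include regulatory T cells whose Foxp3 was not captured. When cells were thinned as above, 51.9% of Foxp3+ cells still held a Foxp3 UMI. The part of such missed cells in the comparison was not tested. The same test between cells with a Cd4 UMI ran on 4799 genes and called 307 higher and 349 lower, 599 of the 656 shared with the first fit.

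The receptors and factors known from regulatory T cells led the higher genes. Ikzf2 was at 1831, 2121 and 2567 CPM (after TMM scaling; lowest, median and highest of 10 replicates) in Foxp3+ cells and 291, 415 and 688 CPM in Foxp3-negative T cells. The sets did not overlap, and the log2 fold was 2.29 (SE 0.079, edgeR adjusted p = 1.58e-20). Il2ra, part of the receptor for interleukin 2, was at 100.2, 157 and 187 CPM against 15.6, 19.7 and 26.9, a log2 fold of 2.91 (SE 0.137, edgeR adjusted p = 2.36e-25). Ctla4, which takes costimulatory ligands from antigen-presenting cells, was at 1146, 1328 and 1491 CPM against 196, 295 and 523, a log2 fold of 2.13 (SE 0.163, edgeR adjusted p = 3.76e-06). Tnfrsf4, a costimulatory receptor, was at 721, 1064 and 1233 CPM against 114, 211 and 374, a log2 fold of 2.41 (SE 0.178, edgeR adjusted p = 2.81e-06). All 4 were higher in 10 of 10 replicate pairs, with no overlap between the sets.

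Larger folds were found in genes of lower level. Neb, the gene of the muscle protein nebulin, was at 46.4, 70.8 and 100.2 CPM against 2.05, 3.68 and 11.5 (log2 fold 3.97). Lrrc32, whose product GARP holds latent TGF-beta on the cell surface, was at 60.1, 164 and 237 CPM against 5.60, 11.7 and 19.3 (log2 fold 3.68). The interleukin 33 receptor Il1rl1 had a log2 fold of 3.66, the integrin chain Itgae (CD103) 3.4, Ikzf4, which encodes the Foxp3 partner Eos, 3.34, and Tnfrsf9 (4-1BB) 3.14. Among the 15 highest folds stood also the TGF-beta-activating integrin chain Itgb8 (2.45), the chemokine receptor Ccr4 (2.42) and Areg (2.56), which encodes the repair factor amphiregulin. Areg was at 696, 915 and 1409 CPM against 110, 132 and 322 CPM, with no overlap.

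Counts over fixed gene lists are read beside the median log2 fold over all tested genes, -0.02. Of a list of regulatory T cell signature genes, 27 of 33 tested rose and 1 fell, with a median log2 fold of 1.58. Of receptors of costimulation and checkpoint, 11 of 13 rose and 1 fell (median 1.24), Tigit among them at a log2 fold of 2.10. Of suppressive mediators, 10 of 12 rose and none fell (median 1.40), among them Ebi3, a chain of interleukin 35, at 2.17. With a Cd4 UMI in both sets, 19 of 27 signature genes rose, 8 of 12 receptors and 5 of 8 mediators.

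Within the interleukin 2 receptor and STAT5 list 5 of 14 rose and 5 fell. Cish, a STAT5 target, rose by 1.54 on the log2 scale, while the survival gene Bcl2 fell by 0.91 and Socs3, a brake on cytokine signals, fell by 0.83. The effector list of regulatory T cells had 13 of 23 higher and 3 lower (median 0.59). Its Klrg1, an inhibitory receptor of effector cells, was at 0, 52.3 and 92.1 CPM against 1.54, 3.11 and 15.1, a log2 fold of 3.46. Klrg1 was higher in 9 of 10 pairs, the exception being R594C/+ replicate 3, where no UMI was seen in 58 cells.

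Genes of resting and naive T cells were lower. Of the central and resting list 13 of 14 fell (median -1.07), and the 1 that rose was the integrin chain Itgb7, known from homing to the gut. Of the naive list 13 of 14 fell (median -1.48). Satb1, a chromatin organiser of naive T cells, was at 96.1, 207 and 493 CPM against 329, 844 and 1204 and fell by 1.85 on the log2 scale. Lef1 fell by 1.68 and Igfbp4 by 2.94.

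All 3 tested cytokine genes of conventional T cells were lower: Ifng fell by 2.51, Cd40lg by 1.56 and Tnf by 1.23 on the log2 scale. Of 8 follicular genes, which mark cells that enter B cell follicles, 7 rose, among them Il1r2 (log2 fold 2.37), Pdcd1 (1.24), Tox2 (1.25) and Cxcr5 (0.94). Pdcd1 and Tox2 did not pass between cells with a Cd4 UMI, where 4 of 8 follicular genes rose. Of 17 immediate early genes, which respond to antigen receptor signals, 5 rose and 9 fell. Rel rose by 1.19, and Egr1 fell by 1.53, Fos by 1.12 and Dusp2 by 1.05. Between cells with a Cd4 UMI 4 of 15 immediate early genes rose and 5 fell (median 0.10).

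Interferon-induced genes stood higher. Of the interferon gamma list 11 of 17 rose and none fell (median 0.42), with log2 folds of 1.90 for Gbp3, 1.79 for Gbp5 and 1.70 for Iigp1, all GTPases of cell-intrinsic defence. Of the type I list 8 of 15 rose and none fell (median 0.42), with Ifi27l2a at 969, 1168 and 1533 CPM against 467, 587 and 668. With a Cd4 UMI in both sets 4 of 14 and 4 of 11 rose. All 20 ribosomal protein genes fell (median -0.45), Rps29 by 0.66, and 7 of 11 mitochondrially encoded genes fell. With a Cd4 UMI in both sets 17 of 20 ribosomal and 3 of 10 mitochondrially encoded genes fell. After thinning to 1000 UMIs 20 of 20 and 2 of 10 fell.

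The ER stress genes that the mutation bears on barely separated the 2 sets. Xbp1 was at 59.2, 110 and 131 CPM against 77.7, 85.1 and 104, a log2 fold of 0.16 (SE 0.125, edgeR adjusted p = 0.44) that was positive in 7 of 10 pairs. Of the list of XBP1 targets and secretory genes 3 of 42 rose and 3 fell (median 0.03). Serp1, which stabilises new membrane proteins, rose by 0.49, and Dnajb9, a chaperone partner, fell by 0.65. Of 14 ER chaperones 2 fell, Hspa5 (BiP) by 0.23 and Dnajc3 by 0.53, and neither fall held between cells with a Cd4 UMI. Ern1 itself was seen in 15 Foxp3+ cells (2.39%), and no test of it is given.

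Most transcripts of other cells that passed were lower in Foxp3+ cells. Ighm went the other way, at 1382 CPM over all Foxp3+ cells and 870 over all Foxp3-negative T cells. Of the myeloid list 9 of 9 tested fell, of the list for NK, NKT and gamma delta T cells 10 of 11, of the B list 5 of 11, of the erythroid list 4 of 5 and of the plasma cell list none of 5 moved. The summed myeloid genes were at 193 to 1719 CPM in Foxp3+ cells and 557 to 13840 in Foxp3-negative T cells. The killer receptor genes Klri2 (0 UMIs in Foxp3+ cells, 617 in Foxp3-negative T cells) and Klrc1 (1 and 1127 UMIs) and the neutrophil genes S100a8, S100a9, Camp and Ngp were among the 10 lowest folds. Without cells that held a UMI of B or myeloid markers (Cd79a, Cd79b, Ms4a1, Lyz2 and S100a8 among them), S100a9 had a log2 fold of 0.13 (edgeR adjusted p = 0.736) and 681 genes rose and 687 fell. The part of such RNA in the other differences was not tested.

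**Figure D2:**
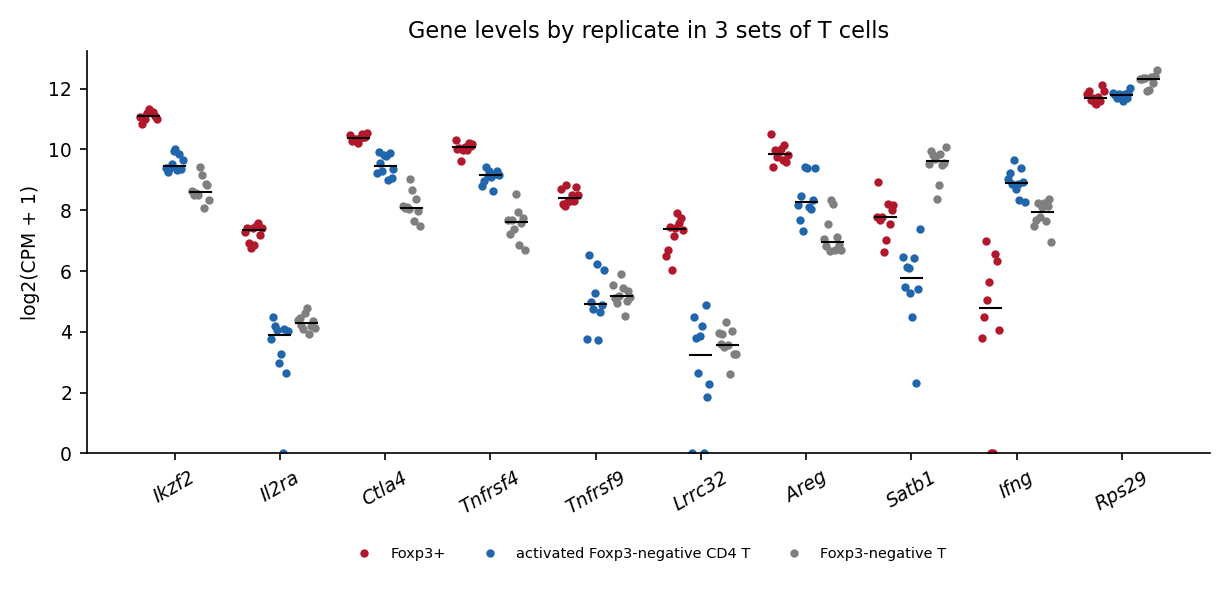
Level of 10 genes as log2(CPM + 1) on the raw UMI totals, with 1 point per replicate for Foxp3+ cells, activated Foxp3-negative CD4 T cells and all Foxp3-negative T cells, and a line at the median. Ikzf2, Il2ra, Tnfrsf9 and Lrrc32 stand above both other sets in Foxp3+ cells without overlap, and the median of Ifng lies below both.

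A closer comparator was the set of 629 activated Foxp3-negative CD4 T cells, which held at least 1 Cd4 UMI, no UMI of 2 genes of resting cells, Ccr7 among them, and at least 2 UMIs of S100a4, Itgb1 and Cd44 together. Those genes, and genes of the naive and resting lists such as Satb1 that follow from the choice, are not read here. Of 3755 genes 15.4% were called, 318 higher in Foxp3+ cells (8.47%) and 262 lower (6.98%). The rule for the activated set was written with earlier results known, and thinning every cell to 1000 UMIs left 183 calls.

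Against activated cells Lrrc32 and Il2ra had the highest folds among genes that passed with a mean of at least 20 CPM and the same sign in every pair. Lrrc32 was at 71.0, 190 and 275 CPM against 0, 10.3 and 33.2, a log2 fold of 3.89 (SE 0.279, edgeR adjusted p = 1.56e-11). Il2ra was at 118, 183 and 214 CPM against 0, 15.8 and 24.7, a log2 fold of 3.70 (SE 0.23, edgeR adjusted p = 3.03e-15). Neither gene overlapped between the sets in any replicate. The folds of Ikzf2 (1.52), Tnfrsf4 (0.93) and Ctla4 (0.88) passed too, each higher in 10 of 10 pairs. Ctla4 was at 1331, 1526 and 1713 CPM against 577, 798 and 1110.

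Further genes set Foxp3+ cells apart from activated ones. Ikzf4 had a log2 fold of 3.22, Tnfrsf9 3.13, Tent5a, a poly(A) polymerase, 2.67, and Swap70, a regulator of the actin skeleton, 2.43. Cd83 (1.46), Tnfrsf18 (1.08), Areg (1.34) and Itgb8 (1.17) also rose. Of 25 signature genes tested, Satb1 left out, 19 rose and 1 fell (median 0.85 against 0.00 over all genes). The 1 that fell was S100a6. S100a4, of the same gene family, was used to choose the activated set, and the part of that choice in this fall was not tested. Among cells with no B or myeloid UMI, 5 of 8 suppressive mediators rose and 2 fell (median 0.60). Of the receptors of costimulation and checkpoint 7 of 12 rose there and 3 fell (median 0.62). After thinning to 1000 UMIs, 3 of 4 mediators rose and 0 fell, and 7 of 10 receptors rose and 1 fell. Of the effector list 4 of 14 rose and 2 fell (median 0.16) in the main fit. Of 8 follicular genes 1 rose, Il1r2, and 1 fell, Slamf6 (median 0.11). Of 20 ribosomal protein genes 4 rose and none fell (median 0.02). In the interferon gamma list 6 of 12 rose and none fell, among them Iigp1 (1.27) and Irf1 (1.07). Among cells with no B or myeloid UMI, 3 of 12 effector genes rose and 4 fell (median -0.03). Of 6 follicular genes 0 rose and 1 fell there, 1 of 20 ribosomal genes rose, and 5 of 9 interferon gamma genes rose. After thinning, 2 of 9 effector genes rose and 2 fell, 1 of 4 follicular genes rose and 1 fell. No ribosomal gene passed then, and 1 of 3 interferon gamma genes rose.

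Ifng and ligands by which helper T cells act were among the lowest folds. Ifng was at 0, 30.4 and 139 CPM in Foxp3+ cells and 352, 542 and 922 CPM in activated cells, a log2 fold of -3.43 (SE 0.355, edgeR adjusted p = 7.49e-05) with no overlap. Cd40lg, the ligand by which helper cells license B cells, was at 4.65, 38.4 and 71.0 CPM against 132, 168 and 202 (log2 fold -2.26). Tnfsf8, the ligand of CD30, had a log2 fold of -2.82, Sostdc1, a secreted antagonist known from follicular helper cells, -3.20, and Spry1, an inhibitor of kinase signals, -2.19. The receptor Slamf6 fell by 1.40. Fos fell by 1.22 and Fosb by 0.86, while Rel rose by 0.74.

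Among cell cycle genes 2 of 9 fell and none rose: Top2a by 1.27 and Hmgb2 by 0.67 on the log2 scale. Xbp1 was 0.32 higher on the log2 scale and did not pass (edgeR adjusted p = 0.184). Of the secretory list 4 of 31 rose, Serp1 (0.69), Edem1 (0.60), Spcs2 (0.37) and Spcs1, and Dnajc3 fell by 0.39. Of the B and plasma cell lists 1 gene each rose, Ighm and Jchain. Ighm, the heavy chain of IgM, was at 1105, 1348 and 4386 CPM against 465, 789 and 1254 (log2 fold 0.99, edgeR adjusted p = 1.05e-06, 10 of 10 pairs), while the other 5 tested B genes did not pass. The highest value is that of R594C/+ replicate 2, where 1 cell held 330 of 540 Ighm UMIs. Jchain, which joins IgM and IgA into polymers, had a log2 fold of 0.62 (edgeR adjusted p = 0.0155, 9 of 10 pairs).

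The surface tags were compared in the same way, per 1000 antibody UMIs after TMM scaling. Of 164 antibodies 37.2% were called, 29 higher (17.7%) and 32 lower (19.5%) on Foxp3+ than on Foxp3-negative T cells. The count moved with single replicates: there were 23 higher and 69 lower without R594C/R594C replicate 2, 23 and 64 without R594C/+ replicate 2, and 23 and 58 without R594C/+ replicate 3, with medians over all tags of -0.36, -0.33 and -0.32 in place of -0.01. CD25 was at 0.387, 0.947 and 1.24 per 1000 (lowest, median, highest) against 0.216, 0.253 and 0.446, a log2 fold of 1.63 (edgeR adjusted p = 1.66e-08). CD357 was at 49.9, 84.6 and 119 per 1000 against 11.8, 24.9 and 50.0, a log2 fold of 1.51 (edgeR adjusted p = 8.45e-11). Both were higher in 10 of 10 pairs. The level of the CD25 tag was low, with 278 UMIs over all Foxp3+ cells against 25063 for CD357.

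The highest fold was that of KLRG1, at 0.719, 8.15 and 19.7 per 1000 against 0.436, 1.12 and 2.48 (log2 fold 2.74, higher in 9 of 10 pairs). CD103 (log2 fold 2.56), TIGIT (1.91), CD326 (1.65), CD150 (1.58), CD278 (1.56) and CD69 (1.54) followed. CD73, the enzyme that makes adenosine from AMP, was at 29.4, 53.8 and 73.2 per 1000 against 9.09, 15.3 and 31.0 (log2 fold 1.58). The lowest were tags of other cells, CD11b (-2.98), a gamma delta receptor chain (-2.84), CD371 (-2.56), Ly49D (-2.06), CD11c and CD314 (-1.85).

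**Figure D3:**
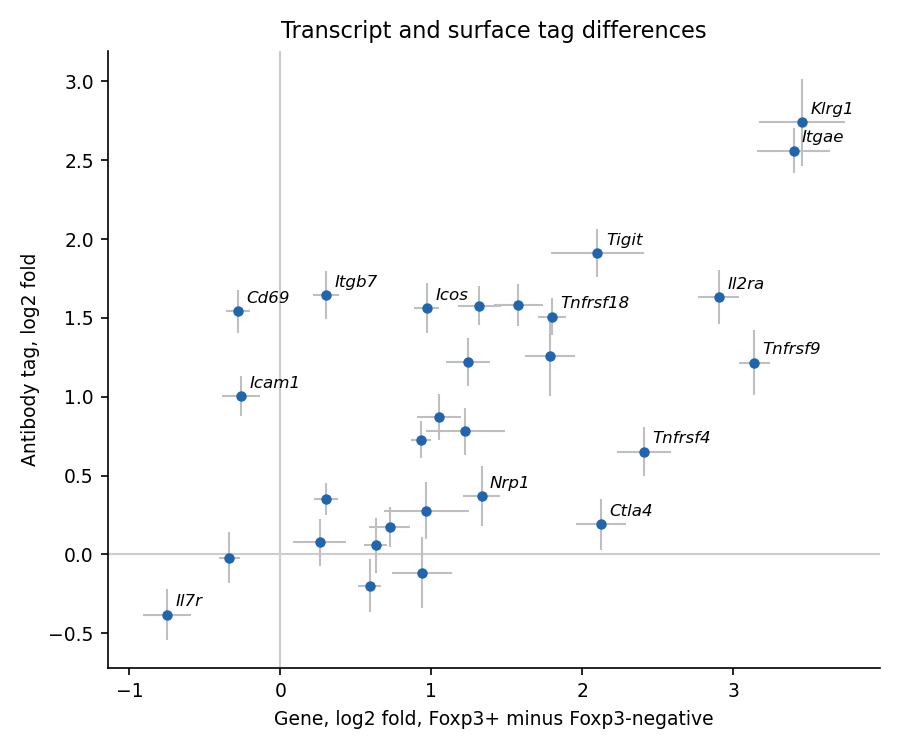
Log2 fold between Foxp3+ and Foxp3-negative T cells of a surface tag (vertical) against that of its gene (horizontal) for 29 antibody and gene pairs, with bars of 1 SE. Most points lie in the upper right, and Ctla4 lies far right with a tag fold of 0.19.

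In 29 pairs an antibody was set beside the gene of its target. In 18 pairs both passed, 17 with both higher in Foxp3+ cells. The remaining pair was CD69, an early activation marker: the tag had a log2 fold of 1.54 and its gene Cd69 fell by 0.28. In 9 pairs only the gene passed. CTLA-4 was the plainest, with a log2 fold of 2.13 for Ctla4 and 0.19 for the CD152 tag (SE 0.164, edgeR adjusted p = 0.407), whose level of 0.162 to 0.828 per 1000 was low. The tag of CD54, an adhesion molecule, had a log2 fold of 1.00 while its gene Icam1 did not pass (-0.26, edgeR adjusted p = 0.147).

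Foxp3+ cells varied among themselves. Klrg1 was seen in 63 of them, and of those 39.7% held an Il1rl1 UMI, 79.4% Areg, 76.2% Gata3 and 73.0% Tnfrsf9. In the other 565 the shares were 6.20%, 48.8%, 41.1% and 38.8%. Ccr7, the receptor that guides resting cells into T cell zones, went the other way, at 12.7% against 31.2%. Median depth was 3335 and 2864 UMIs in these classes, so depth moved with the shares, and cells of 1 sample are not replicates, so no test is given. The 60 cells with Il1rl1, at a depth of 2939.5 against 2893 UMIs, held Areg in 71.7% against 49.8%, Gata3 in 70.0% against 41.9% and Ccr7 in 16.7% against 30.6%.

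Cells with and without an Ikzf2 UMI could be compared in 2 replicates only, R594C/+ replicate 3 and R594C/R594C replicate 2. Of 1767 genes 8.94% were called, 57 higher (3.23%) and 101 lower (5.72%) in cells with Ikzf2. Tnfrsf4 was at 1459 and 1599 CPM with Ikzf2 and 97.2 and 244.5 CPM without it (log2 fold 3.09, edgeR adjusted p = 1.53e-10). Cells without Ikzf2 held more of the resting genes: Satb1 fell by 2.64 with Ikzf2, Lef1 by 2.25 and Ccr7 by 2.24 on the log2 scale. The Ikzf2-negative cells rest on few counts (9 UMIs of Tnfrsf4, 68 of Satb1), and DESeq2 called 46 genes.

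**Figure D4:**
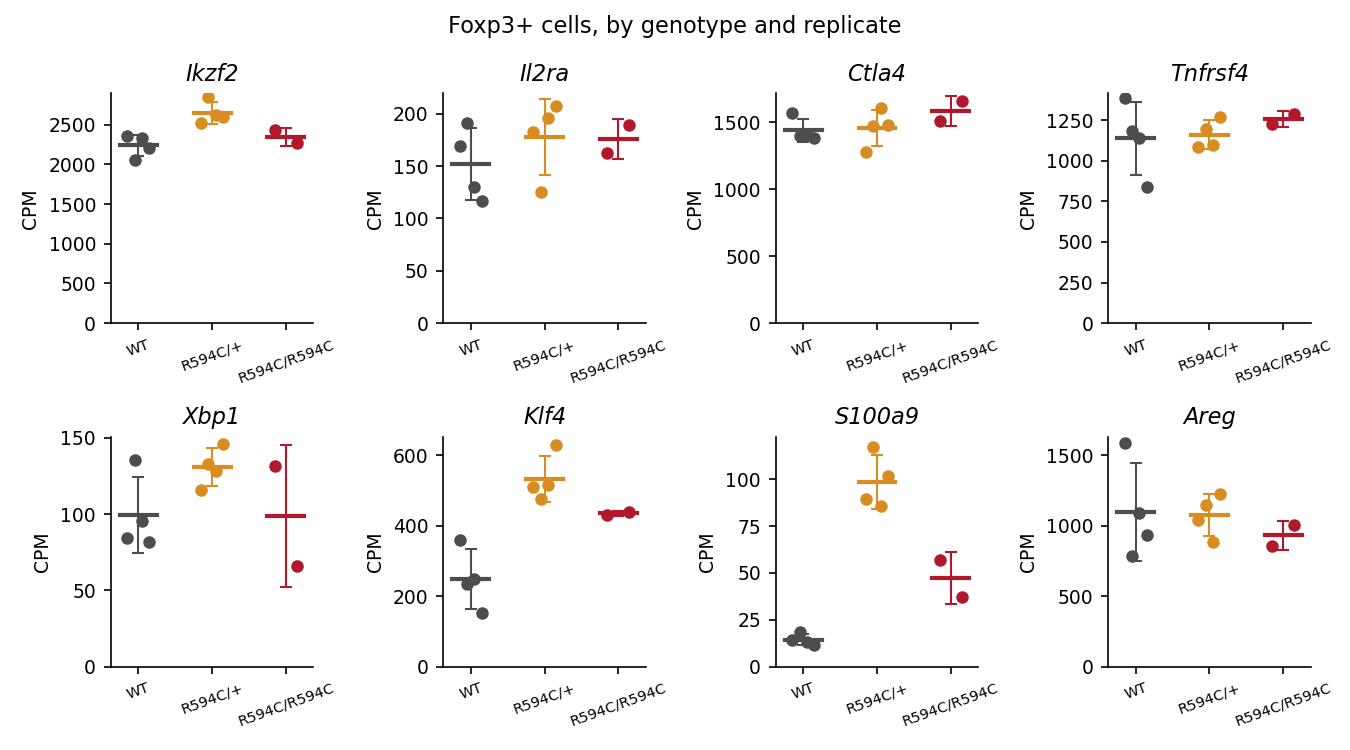
Level in CPM after TMM scaling of 8 genes in Foxp3+ cells by genotype, with 1 point per replicate, a line at the mean and bars of 1 SD (n = 4, 4 and 2). Ikzf2, Il2ra, Ctla4, Tnfrsf4, Xbp1 and Areg did not pass between genotypes, and for Klf4 and S100a9 all 4 R594C/+ points lie above all 4 WT points.

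Between genotypes few transcripts of Foxp3+ cells moved. In edgeR's test on 4543 genes none passed between R594C/R594C and WT (0.0%, with 206 at an unadjusted p under 0.05 and 0 calls by DESeq2), and none between R594C/R594C and R594C/+ (0.0%, with 220 and 0). Between R594C/+ and WT 2 genes passed, both higher (0.044%, with 368 at an unadjusted p under 0.05 and 16 calls by DESeq2). With 2 R594C/R594C replicates the test had limited reach: on counts simulated from these libraries it recovered 40% of genes changed 2-fold and 85% of those changed 4-fold for R594C/R594C against WT, and 50% and 90% for R594C/+ against WT. It also called 3 and 9 genes simulated without a change. The changed genes were drawn from those above a limit on mean count, and all genes were given a common spread. The recovery therefore does not cover genes of low count or wide spread.

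No transcript of the markers Ikzf2, Il2ra, Ctla4 and Tnfrsf4 passed between genotypes, and surface tags are taken up separately below. Foxp3 itself, which the rule used, was at 522 to 570 CPM in WT, 587 to 716 in R594C/+ and 628 and 585 in R594C/R594C, given as a description. Ikzf2 was at 2354, 2059, 2336 and 2212 CPM in WT, 2524, 2854, 2619 and 2599 in R594C/+ and 2428 and 2264 in R594C/R594C. Each R594C/+ value lay above each WT value, but the log2 fold of 0.24 (SE 0.099) did not pass (edgeR adjusted p = 0.485). For R594C/R594C against WT the log2 folds were 0.07 for Ikzf2 (SE 0.119), 0.21 for Il2ra (SE 0.244), 0.14 for Ctla4 (SE 0.134) and 0.13 for Tnfrsf4 (SE 0.149), and none passed. Of the signature list 0 of 30 passed in either mutant against WT, with medians of 0.02 in R594C/+ and 0.03 in R594C/R594C.

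Xbp1, the target of IRE1, was at 84.6, 135.6, 95.7 and 81.5 CPM in WT, 116, 133, 128.5 and 146 in R594C/+ and 132 and 66.0 in R594C/R594C. The log2 fold was 0.37 in R594C/+ (SE 0.262, edgeR adjusted p = 0.8) and -0.11 in R594C/R594C (SE 0.307, edgeR adjusted p = 0.992), and the sign of the latter turned without WT replicate 2 or R594C/R594C replicate 2. None of 36 secretory genes passed in either mutant, with medians of -0.04 and -0.13. Of 12 ER chaperones none passed, and 10 had a negative fold in R594C/R594C (median -0.29 against 0.00 over all genes) and 6 in R594C/+. None of the 15 immediate early genes passed, with 13 and 14 positive folds in R594C/R594C and R594C/+. Over all genes 49.7% and 48.8% of folds were positive, and genotype and capture cannot be told apart here either.

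Klf4, a Kruppel-like factor that restrains T cell proliferation, was at 359, 234, 248 and 151 CPM in WT, 509, 477, 514 and 628 in R594C/+ and 430 and 439 in R594C/R594C. Both mutant groups lay above all 4 WT replicates. The log2 fold was 1.07 for R594C/+ (SE 0.176, edgeR adjusted p = 0.000333) and 0.77 for R594C/R594C (SE 0.202, edgeR adjusted p = 0.348). All R594C/+ replicates were female, against 1 of 4 in WT, and with expressed sex as a covariate the R594C/+ fold was 1.11 (edgeR adjusted p = 0.0181). The fold was 1.06 among cells with a Cd4 UMI and 0.95 among cells with no B or myeloid UMI, where it did not pass (edgeR adjusted p = 0.207 and 0.543). In Foxp3-negative T cells, where 0.273% of 10969 genes were called, it was 0.45 (edgeR adjusted p = 0.337), and the difference between the cell sets did not pass (0.67, edgeR adjusted p = 0.137).

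S100a9, a calcium-binding protein of neutrophils, was the other. Its levels were 14.1, 18.5, 13.1 and 11.6 CPM in WT, 89.3, 117, 85.7 and 102 in R594C/+ and 57.1 and 37.3 in R594C/R594C, and the log2 fold for R594C/+ was 2.69 (SE 0.408, edgeR adjusted p = 0.000106). These levels rest on 9 UMIs in WT and 72 in R594C/+. DESeq2 gave a log2 fold of 2.76 and no adjusted p, and between cells with a Cd4 UMI the gene did not reach the low-count filter. The summed myeloid list moved with it, at 193 to 254 CPM in WT, 369 to 1719 in R594C/+ and 236 to 267 in R594C/R594C, and its part in the result was not tested. Without cells that held a B or myeloid marker UMI the fold was 2.87 (edgeR adjusted p = 0.0189). In Foxp3-negative T cells the fold was 2.91 (edgeR adjusted p = 0.367). For R594C/R594C against WT the lowest adjusted p among genes that did not pass belonged to S100a4 (log2 fold -1.06) and Il1r2 (-1.57), both 0.156.

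A test of whether the mutant difference itself differed between Foxp3+ and Foxp3-negative T cells ran on 10290 genes. For R594C/R594C 1 gene passed (0.00972%), the lambda light chain gene Iglc3, and for R594C/+ 5 passed (0.0486%). The Iglc3 call rested on WT replicate 4, whose Foxp3-negative T cells were at 540 CPM while every other replicate lay at 14.9 to 21.3, and without that replicate no gene passed (Iglc3 log2 difference 1.15). Nr4a3, a factor induced by antigen receptor signals, had a log2 fold of 0.42 in Foxp3+ and -0.35 in Foxp3-negative T cells, neither of which passed alone, and a difference of 0.81 (edgeR adjusted p = 0.00114). Atpif1, an inhibitor of the mitochondrial ATP synthase, was at 176, 173, 217.5 and 175 CPM in WT Foxp3+ cells and 134, 141, 79.5 and 102 in R594C/+, with no overlap. Its log2 fold was -0.73 in Foxp3+ cells (edgeR adjusted p = 0.224) and 0.84 in Foxp3-negative T cells (0.00269), and the difference was -1.52 (1.25e-05). None of the 5 passed with cells thinned to 1000 UMIs or with no B or myeloid UMI. The difference of Atpif1 was then -1.004 and -1.053 (edgeR adjusted p = 0.944 and 0.578), and that of Nr4a3 0.96 and 0.64 (0.102 and 0.425). Without WT replicate 3 the difference of Nr4a3 was 0.70 and did not pass (edgeR adjusted p = 0.0794).

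**Figure D5:**
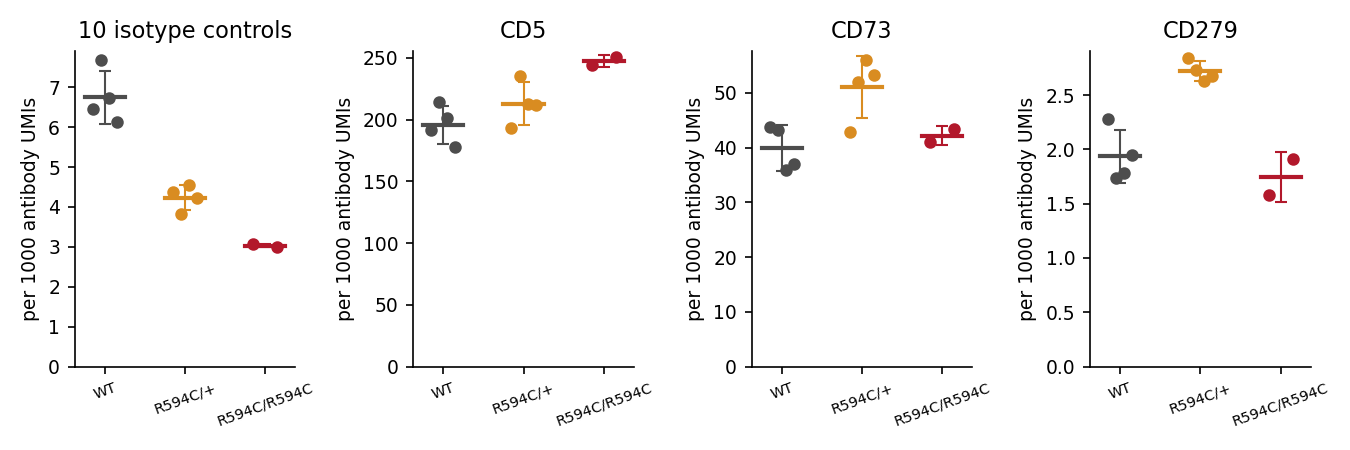
Antibody UMIs per 1000 in Foxp3+ cells by genotype for the sum of 10 isotype controls, CD5, CD73 and CD279, with 1 point per replicate, a line at the mean and bars of 1 SD. Isotype controls fall from WT (6.12 to 7.68) over R594C/+ (3.82 to 4.55) to R594C/R594C (3.00 to 3.07), and no replicate of 1 genotype reaches the next.

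The surface tags differed between genotypes together with the antibody background. The 10 isotype controls, antibodies with no target, made up 6.12 to 7.68 of 1000 tags in WT Foxp3+ cells, 3.82 to 4.55 in R594C/+ and 3.00 to 3.07 in R594C/R594C. Each genotype was 1 staining. Of 117 antibodies 31.6% were called between R594C/R594C and WT (10 or 8.55% higher, 27 or 23.1% lower), 14.5% between R594C/+ and WT (2 or 1.71% higher, 15 or 12.8% lower) and 2.56% between the mutants (1 or 0.855% higher, 2 or 1.71% lower). The direction turned on the scaling: against the isotype controls 46 were higher and 20 lower in R594C/R594C, and 30 higher and 5 lower in R594C/+. The scalings were chosen after seeing the data.

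Of the 37 calls for R594C/R594C, 21 held in the same direction under TMM, DESeq2 size factors, totals and isotype scaling. The only higher one was CD5, which dampens antigen receptor signals, at 191.2, 214, 201 and 178 per 1000 in WT, 193, 235, 212 and 211 in R594C/+ and 244 and 251 in R594C/R594C . The R594C/R594C values lay above all others. The log2 fold was 0.87 after TMM scaling (edgeR adjusted p = 0.00204), 0.31 on the totals these levels use and 1.49 against the isotype controls, so its size turned on the scaling. Lower ones included CD335 (-3.57), P2RY12 (-3.49) and CD62P (-2.95), tags of other cell types at low level. The CD152 tag of CTLA-4 (-2.17) and a rat IgG1 isotype control (-1.88, and -1.22 against the isotype controls) were among them too. Holding under every scaling thus did not set a tag apart from the antibody background. CD357 (0.59) and CD4 (0.72) were called higher after TMM scaling (edgeR adjusted p = 0.00996 and 0.00576) but not on totals (0.885 and 0.156). For R594C/+ 2 of 17 held under all: CD279 (PD-1), at 2.28, 1.74, 1.78 and 1.95 per 1000 in WT and 2.84, 2.73, 2.63 and 2.68 in R594C/+, and CD73, at 43.9, 43.2, 35.9 and 36.9 against 42.9, 51.9, 55.9 and 53.3. The log2 fold of CD279 was 0.69 after TMM scaling (edgeR adjusted p = 0.0272) and 0.48 on totals, and that of CD73 0.54 (edgeR adjusted p = 0.0456) and 0.34.

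On Foxp3-negative T cells these 3 tags had log2 folds after TMM scaling of 1.39 for CD5, 0.72 for CD279 and 0.87 for CD73, all past the threshold, where 72.6% (R594C/R594C) and 52.4% (R594C/+) of 168 antibodies were called. On antibody totals CD5 was at 179 to 211 per 1000 in WT and 224.5 and 240.6 in R594C/R594C, with no overlap. CD279 was at 0.937 to 1.36 in WT and 0.882 to 2.03 in R594C/+, and CD73 at 16.3 to 18.9 and 15.1 to 30.7, so both overlapped there. For none of the 3 did the difference in fold between the cell sets pass edgeR's test (adjusted p = 0.237, 0.959 and 0.959), which called 15.2% and 1.22% of 164. For these tags, too, genotype, staining and capture cannot be told apart.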

How the data were processed

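CITE-seq of splenocytes from 3 genotypes gave 1 capture each, with 4, 4 and 2 hashtag replicates. The authors deposited filtered 10x matrices of raw counts (UMIs per gene and per antibody tag), made with Cell Ranger 5.0.0 per the file headers, and the submitters' processing notes name mm10, STAR and Seurat 3.1.4. The files list 55385 genes and 191 antibodies, hashtags included. Cells with no single hashtag (1551 to 2060 per capture) were left out. Hashtag doublets were removed this way and no doublet caller was run, so doublets within a replicate remain.

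Counts were summed per replicate and cell set and tested with edgeR 4.0.16 (quasi-likelihood, robust, TMM scaling, filterByExpr, Benjamini-Hochberg adjusted p under 0.05) in R 4.3.3. Cell sets needed at least 10 cells per replicate and were compared with the replicate as a block, and genotypes without one. Antibodies needed a mean of 10 UMIs. Shares were tested by exact permutation (scipy 1.17.1) with 95% exact (Clopper-Pearson) intervals. Gene levels by replicate beside tests are CPM after the TMM scaling of their own fit. Tag levels by genotype and summed lists are on raw totals. Alternatives were DESeq2 1.42.0, no low-count filter, thinning to 1000 UMIs, other hashtag and cell rules, sex as covariate and leaving out each replicate. The scripts were tested on simulated counts.

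Members, gene lists, cell sets and tests were chosen with earlier results of these data known. Named genes are the markers, Ern1 and Xbp1, the highest and lowest folds past the threshold (15 and 10, 10 and 6, or 8 and 8 by comparison, the first 2 kinds with a mean of at least 20 CPM and the same sign in every pair), and up to 4 members per list. The tag and gene pairs, the classes by Klrg1 and Il1rl1 and Atpif1's levels were chosen after values were seen. 1 planned comparison between classes of Foxp3+ cells, 1 tag and gene pair and a few single values are not reported here. Summed Foxp3+ counts ran from 92697 to 386379 UMIs per replicate.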

Additional observations from a re-analysis of the deposited data

Results flagged for a closer look

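In 52 groups of 4 replicates tested for 1 value far from the others, 2 were found, and chance gives about 1 in 20. The highest WT replicate of Ctla4 in Foxp3+ cells was at 1565 CPM while the other 3 lay at 1385 to 1405. The highest R594C/+ replicate of Ighm was at 4222 CPM, in replicate 2, while the others lay at 1608 to 1746. In that replicate 1 cell held 330 of the 540 Ighm UMIs and 658 of the 957 Igkc UMIs, and the median cell held 4 Ighm UMIs. Igkc was highest in the same replicate, at 7482 CPM.

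In 6 genes the difference between a mutant and WT differed between Foxp3+ and Foxp3-negative T cells by edgeR's test of the difference. For R594C/R594C this was Iglc3, with a log2 difference of 3.32 (adjusted p = 0.0373) that rested on WT replicate 4 and was 1.15 without it, with no call. For R594C/+ these were Serpinb6b at 1.80 (adjusted p = 0.0396), Fosl2 at 0.84 (0.0424), Nr4a3 at 0.81 (0.00114), Vps37b at 0.60 (0.0424) and Atpif1 at -1.52 (1.25e-05), none of which passed after thinning to 1000 UMIs or with no B or myeloid UMI.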

How the results depend on the processing

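Depth and cell number limit these results: a replicate gave 26 to 107 Foxp3+ cells, and with 1 capture per genotype no setting separates genotype from capture. The hashtag number did not pair the samples (correlations of deviations -0.033 to 0.062 over 8 pairs). With the hashtag number as a replicate block, 2 genes were called for R594C/R594C minus WT, 16 for R594C/+ minus WT and 2 for R594C/R594C minus R594C/+, and 12 antibodies for the last. The cause of the changes below was not tested.

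The correlation of the share with allele number turned to 0.058 with at least 2 Foxp3 UMIs, to 0.086 with no B or myeloid UMI and, among T cells, to -0.088 with at least 1 Cd4 UMI. Leaving out 1 replicate gave -0.259 to 0.185 of all cells and -0.171 to 0.194 of T cells.

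Genes called between genotypes were 4 without a low-count filter for R594C/R594C minus WT (0 to 5 leaving out 1 replicate). For R594C/+ minus WT they were 16 by DESeq2, 23 without a filter, 6 with a Cd4 UMI and 1 with no B or myeloid UMI (2 to 25, the highest without WT replicate 2). For R594C/R594C minus R594C/+ they were 4 without a filter, 1 with sex and 1 with a Cd4 UMI (0 to 1). Antibodies for R594C/R594C minus WT were 96 without a filter, 2 with a Cd4 UMI, 22 with no B or myeloid UMI and 66 against isotypes (26 to 46). For R594C/+ minus WT they were 4 by DESeq2, 40 without a filter, 9 with sex, 0 with a Cd4 UMI, 11 with no B or myeloid UMI, 29 by totals and 35 against isotypes (3 to 25). For the 2 mutants they were 5 by DESeq2, 19 without a filter, 0 with sex, 20 at a hashtag margin of 5, 0 with a Cd4 UMI, 7 with no B or myeloid UMI, 16 by totals and 26 against isotypes (0 to 21).

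Foxp3+ against Foxp3-negative T cells gave 815 genes after thinning and 656 with a Cd4 UMI (1600 to 1832 leaving out 1 replicate), and 55 to 92 antibodies. Against activated cells there were 351 by DESeq2, 183 after thinning and 367 with no B or myeloid UMI (490 to 570). The Ikzf2 classes gave 46 by DESeq2, 71 without a filter and 77 at a hashtag margin of 5, and leaving out a replicate, thinning and the cell rule on B and myeloid UMIs gave no value there. The difference between cell sets gave, for R594C/R594C, 0 by DESeq2, without a filter, after thinning, with no B or myeloid UMI and with no replicate block and 3 at a hashtag margin of 5 (0 to 6). For R594C/+ it gave 1 by DESeq2, 9 without a filter, 0 after thinning, 1 with no B or myeloid UMI and 1 with no replicate block (3 to 19).

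Of single genes and tags, 17 values turned sign, 287 lost their call and 6 gained one, and 3371 kept direction and side. The turned log2 folds follow, with the range over replicates left out in parentheses. Xbp1 for R594C/R594C minus WT turned without WT replicate 2 or R594C/R594C replicate 2 (-0.618 to 0.382) and against R594C/+ without R594C/R594C replicate 2 (-0.996 to 0.004). Ctla4 for R594C/+ minus WT was -0.007 with sex and -0.022 with no B or myeloid UMI (-0.033 to 0.075). Tnfrsf4 was -0.033 with sex, -0.038 with a Cd4 UMI and -0.019 with no B or myeloid UMI (-0.08 to 0.13). Il2ra for R594C/R594C minus R594C/+ was 0.107 with sex (-0.165 to 0.045). S100a9 between cell sets was 0.131 with no B or myeloid UMI, and Tsix -0.133 after thinning.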

Other observations

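Immunoglobulin transcripts in Foxp3+ cells had another make-up than those in other cells of the same replicate. The ratio of Ighm to Igkc was 0.564 to 1.33 in Foxp3+ cells (median 0.821), 0.359 to 1.69 in Foxp3-negative T cells (median 0.476), 0.452 to 0.707 in CD8 T cells (median 0.557) and 0.158 to 0.369 in B cells. It was higher in Foxp3+ cells than in Foxp3-negative T cells in 9 of 10 replicates and than in CD8 T cells or B cells in 10 of 10. Without the Foxp3+ cell of highest Igkc in each replicate the ratio was 0.702 to 1.33. An Ighm UMI was found in 92.7% of Foxp3+ cells, 80.7% of Foxp3-negative T cells and 84.7% of CD8 T cells. The share with an Igkc UMI was 95.4%, 94.3% and 94.6% in the same order.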
